A study of Mus musculus with 12 samples.

Results

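The genes described here are 6 protease inhibitors of keratinocytes: the clade B serpins Serpinb2, Serpinb3a, Serpinb3b, Serpinb3c and Serpinb5, and the Kazal-type inhibitor Spink5. They were chosen as a list of gene symbols and looked up in the annotation of the array. Of the 6 genes, 5 had a probe, out of 16896 genes with a probe on the array. The 5 genes had 7 probes, since Serpinb3a and Serpinb3c had 2 each, and all 7 gave a value on all 12 arrays. No probe carried the symbol Serpinb3b, and its RNA is not described below.

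Expression had been measured in papillomas of the tail skin of 6 mice on a mixed 129/Ola, C57BL/6, CBA, LVA and B6C3F1 background. In 3 mice, specimens 6, 8 and 9, the epidermis lacked c-Fos (c-Fos-deficient), and in 3 mice, specimens 2, 3 and 5, the c-Fos alleles were floxed and active (c-Fos-floxed). Both groups carried a transgene for an active form of Sos, which loads Ras with GTP. The keratin 5 promoter drives this transgene in basal keratinocytes. By design the deletion was specific to the epidermis and did not extend to the other cells of a papilloma, in which Fos was not measured separately. Each specimen was hybridised on 2 two-colour arrays with exchanged dyes against a reference RNA pooled from mouse cell lines. Values are log2 ratios of papilloma over reference RNA, a direction that the files do not state and that is the likely one. A specimen value is the mean of its 2 arrays, and a difference is c-Fos-deficient minus c-Fos-floxed.

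Serpins inhibit proteases by offering a reactive loop that the protease cuts, after which inhibitor and protease stay locked in a complex. Serpinb2, or plasminogen activator inhibitor type 2, blocks the urokinase-type and tissue-type plasminogen activators. The Serpinb3 genes are the mouse counterparts of the human squamous cell carcinoma antigens, inhibitors of some cathepsins and other proteases. Serpinb5, or maspin, has the serpin fold but does not act as a classical protease inhibitor. Spink5 encodes LEKTI, a chain of inhibitory domains that holds kallikreins of the cornified layer in check, and its loss causes Netherton syndrome in humans. Fos is a subunit of AP-1, a transcription factor that binds a short motif in the promoters and enhancers of many keratinocyte genes.

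The serpin genes lie in 1 cluster on chromosome 1, and the 3 Serpinb3 genes are close copies. Their promoters are shown because the copies bear on what a probe labelled with 1 of them can report, and because the AP-1 motif bears on the deleted gene. The windows run from 250 bases before to 50 bases after each start (RefSeq, GRCm38.p6) and are written 5′ to 3′ on the strand of the gene. Capitals mark TGANTCA, a loose form of the AP-1 motif TGACTCA or TGAGTCA in which N is any base, and the TATA motif TATAAA. Both were searched on both strands, with no overlap between matches. Serpinb2 has 2 overlapping windows in RefSeq, of which the first is shown.
Serpinb3a: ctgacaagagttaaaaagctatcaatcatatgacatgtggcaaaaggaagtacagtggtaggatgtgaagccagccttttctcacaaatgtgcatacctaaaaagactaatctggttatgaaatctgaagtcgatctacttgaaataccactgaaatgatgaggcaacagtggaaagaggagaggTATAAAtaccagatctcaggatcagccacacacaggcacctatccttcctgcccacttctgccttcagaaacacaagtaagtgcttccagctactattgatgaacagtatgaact
Serpinb3b: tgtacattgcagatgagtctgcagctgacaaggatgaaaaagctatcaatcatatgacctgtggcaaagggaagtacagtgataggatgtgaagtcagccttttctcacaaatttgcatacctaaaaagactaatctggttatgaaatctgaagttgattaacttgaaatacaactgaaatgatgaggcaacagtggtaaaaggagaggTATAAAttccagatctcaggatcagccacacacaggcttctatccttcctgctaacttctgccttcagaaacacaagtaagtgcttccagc
Serpinb3c: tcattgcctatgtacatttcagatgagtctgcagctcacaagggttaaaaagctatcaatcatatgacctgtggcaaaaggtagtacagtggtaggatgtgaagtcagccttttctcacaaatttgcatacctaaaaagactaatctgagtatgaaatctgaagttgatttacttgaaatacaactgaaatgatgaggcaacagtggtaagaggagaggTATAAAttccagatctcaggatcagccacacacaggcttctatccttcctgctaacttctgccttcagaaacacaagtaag
Serpinb2: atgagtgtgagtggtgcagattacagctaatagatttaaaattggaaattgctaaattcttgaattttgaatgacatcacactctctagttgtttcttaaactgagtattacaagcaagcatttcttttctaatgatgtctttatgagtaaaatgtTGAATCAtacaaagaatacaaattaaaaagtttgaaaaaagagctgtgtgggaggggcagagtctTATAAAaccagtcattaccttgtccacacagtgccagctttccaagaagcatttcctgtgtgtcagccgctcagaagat
Serpinb5: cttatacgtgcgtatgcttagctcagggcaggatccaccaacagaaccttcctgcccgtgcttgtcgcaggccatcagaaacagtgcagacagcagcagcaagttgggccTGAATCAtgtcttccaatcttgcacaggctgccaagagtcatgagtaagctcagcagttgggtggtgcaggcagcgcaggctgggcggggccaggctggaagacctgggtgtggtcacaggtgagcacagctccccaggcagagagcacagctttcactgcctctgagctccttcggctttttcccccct

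The Serpinb3a window is chr1:107052254-107052553, that of Serpinb3b chr1:107161065-107161364 and that of Serpinb3c chr1:107278322-107278621, all 3 on the minus strand. The Serpinb2 window is chr1:107511173-107511472 and that of Serpinb5 chr1:106860925-106861224, both on the plus strand. Aligned with free ends, the Serpinb3b and Serpinb3c windows were identical at 279 of 290 positions, or 96.2%. Serpinb3a matched Serpinb3c at 93.6% of 266 positions and Serpinb3b at 93.1% of 276 positions. The 3 copies each held 1 TATA motif and no match to TGANTCA. Serpinb2 and Serpinb5 held 1 match each, which began 94 bases before the start of Serpinb2 and 140 bases before that of Serpinb5. Both matches read TGAATCA, and neither window held TGACTCA or TGAGTCA. The loose pattern TGANTCA was present in 7.81% of 32851 promoter windows of this length and the TATA motif in 13.6%. A related motif, TGACGTCA, was present in 1.79% of the windows and in none of the 5 shown. A match describes these letters only.

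The Fos probe, which checks the labels, read lower in every c-Fos-deficient specimen, with log2 ratios of -4.01, -4.43 and -3.91 in c-Fos-deficient specimens 6, 8 and 9, and -1.30, -0.56 and -1.56 in c-Fos-floxed specimens 2, 3 and 5. The difference was -2.98 (SE 0.29), with an adjusted p of 0.188 in limma. Over all 21071 probes tested, 0 passed an adjusted p of 0.05, which is 0.0% of them, and 0.188 was the smallest adjusted p. At an unadjusted p under 0.05, 2487 probes differed, and the median difference of all probes was 0.02. None of the 7 protease inhibitor probes passed the adjusted threshold. Their differences are given below as values with intervals.

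Serpinb3c was the gene with higher values in the c-Fos-deficient papillomas. Its first probe had log2 ratios of 1.40, 1.16 and 0.66 in c-Fos-deficient specimens 6, 8 and 9, and 0.25, 0.32 and 0.32 in c-Fos-floxed specimens 2, 3 and 5. Every c-Fos-deficient specimen lay above every c-Fos-floxed one. The means were 1.07 ± 0.38 in c-Fos-deficient and 0.30 ± 0.04 in c-Fos-floxed papillomas (SD, n = 3 each). The difference was 0.77 (SE 0.20, 95% interval 0.29 to 1.26), with an adjusted p of 0.264 in limma. With 3 specimens against 3, the exact two-sided permutation test gave p = 0.1, the smallest this design allows.

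The second Serpinb3c probe had values of 1.24, 0.86 and 0.64 in c-Fos-deficient specimens 6, 8 and 9, and 0.22, 0.37 and 0.32 in c-Fos-floxed specimens 2, 3 and 5. The order of the c-Fos-deficient specimens was the same as on the first probe, with specimen 6 highest and specimen 9 lowest. The difference was 0.61 (SE 0.16, 95% interval 0.21 to 1.02), with an adjusted p of 0.278 in limma. Over the 12 arrays the probes correlated at r = 0.965, and they never differed by more than 0.44. Both probes target 1 gene, so they are not independent evidence.

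Both Serpinb3c probes kept the groups apart in each dye orientation. With the papilloma in Cy5, the first probe read 1.90, 1.61 and 1.07 in c-Fos-deficient specimens 6, 8 and 9, and 0.54, 0.67 and 0.53 in c-Fos-floxed specimens 2, 3 and 5. With the papilloma in Cy3 it read 0.90, 0.71 and 0.26 in the c-Fos-deficient specimens, and -0.03, -0.03 and 0.12 in the c-Fos-floxed ones. Spot signals were not analysed here, so whether these spots stood above background in the c-Fos-floxed papillomas was not tested, and no fold is given. The differences of the second probe were 0.89 in Cy5 and 0.34 in Cy3. Over all probes with complete values, 2.65% had the c-Fos-deficient specimens all higher in both orientations and 4.85% had them all lower, and the 2 Serpinb3c probes were the only ones of the 7 in either class.

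Serpinb3a, another copy in the cluster, had overlapping groups on both probes. Its first probe read 5.73, 5.92 and 5.69 in c-Fos-deficient specimens 6, 8 and 9, and 5.63, 6.12 and 5.78 in c-Fos-floxed specimens 2, 3 and 5. The difference of the first probe was -0.06 (SE 0.15, 95% interval -0.44 to 0.31, adjusted p of 0.875 in limma). The second probe read 5.73, 6.37 and 6.50 in the c-Fos-deficient specimens, and 6.36, 6.37 and 6.69 in the c-Fos-floxed ones. Here c-Fos-deficient specimen 6 stood below the other 5 specimens, and the others overlapped. The difference was -0.27 (SE 0.23, 95% interval -0.84 to 0.30, adjusted p of 0.67 in limma). It was -0.04 without c-Fos-deficient specimen 6, -0.11 in Cy5 and -0.43 in Cy3, where the c-Fos-deficient specimens were all lower. Both intervals include 0, and the difference between Serpinb3a and Serpinb3c was not tested.

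The Serpinb3a probes tracked each other less closely than the Serpinb3c probes, with r = 0.428 over the 12 arrays. The first probe read between 1.09 below and 0.18 above the second, with a median of -0.62. The 2 Serpinb3a probes had log2 ratios between 5.22 and 6.82 on single arrays, near the array maxima of 6.62 to 7.34. Whether such high ratios were compressed was not tested. RefSeq lists old shared names, among them Serpinb4 and Scca2, under both Serpinb3a and Serpinb3c. The sequences of the spotted probes were not used here, so how far a probe also bound RNA of another copy, Serpinb3b included, was not tested.

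**Figure D1:**
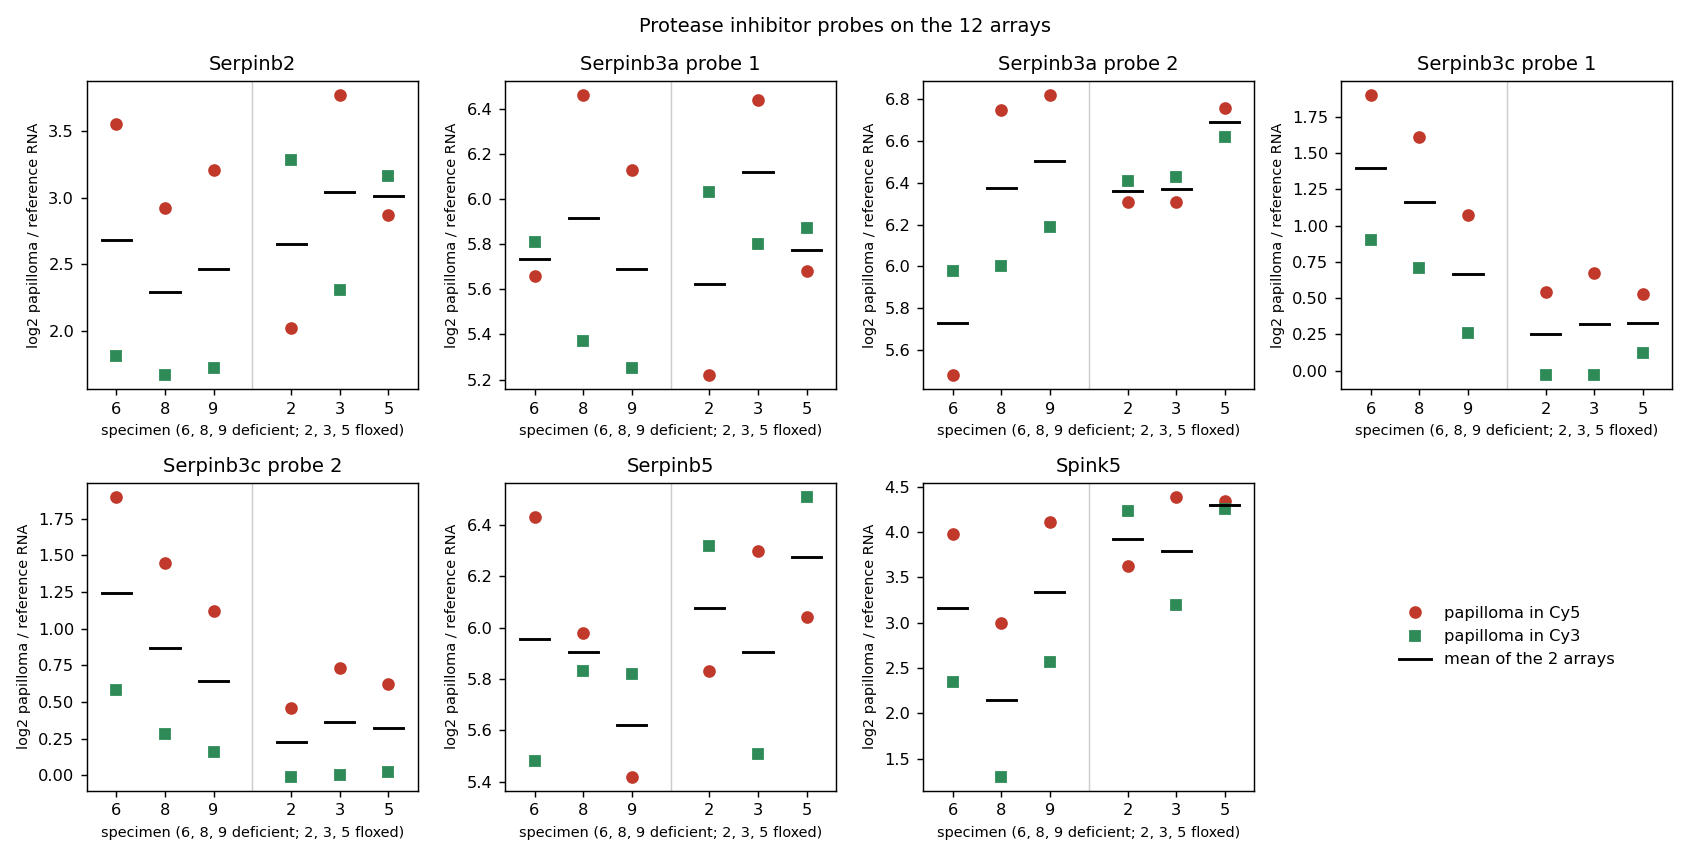
Log2 ratios of papilloma over reference RNA (vertical axes, each with its own range) for the 7 probes on the 12 arrays, with c-Fos-deficient specimens 6, 8 and 9 left of c-Fos-floxed specimens 2, 3 and 5. Circles are arrays with the papilloma in Cy5, squares those in Cy3 and bars the mean of both; the Serpinb3c bars lie at 0.64 or more in the c-Fos-deficient specimens and at 0.37 or less in the c-Fos-floxed ones.

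Spink5 had lower values in all 3 c-Fos-deficient papillomas. Its log2 ratio was 3.16, 2.15 and 3.34 in c-Fos-deficient specimens 6, 8 and 9, and 3.93, 3.79 and 4.29 in c-Fos-floxed specimens 2, 3 and 5. The groups did not overlap, and specimen 8 stood lowest. The means were 2.88 ± 0.64 in c-Fos-deficient and 4.00 ± 0.26 in c-Fos-floxed papillomas (SD, n = 3 each). The difference was -1.12 (SE 0.34, 95% interval -1.97 to -0.27), or 2.17-fold lower, with an adjusted p of 0.317 in limma. The exact permutation p was 0.1, the smallest possible. Without specimen 8 the difference was -0.75. In whole papillomas, fewer keratinocytes of a given layer and less RNA per keratinocyte cannot be told apart.

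The dye orientation moved the Spink5 difference. With the papilloma in Cy3, Spink5 read 2.34, 1.30 and 2.57 in c-Fos-deficient specimens 6, 8 and 9, and 4.23, 3.19 and 4.25 in c-Fos-floxed specimens 2, 3 and 5. These values did not overlap, and the difference was -1.82. With the papilloma in Cy5 it read 3.98, 3.00 and 4.11 in the c-Fos-deficient specimens, and 3.62, 4.39 and 4.34 in the c-Fos-floxed ones. There the groups overlapped, since specimens 6 and 9 lay above c-Fos-floxed specimen 2, and the difference was -0.42.

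Serpinb2 depended on the dye orientation for its direction. Its specimen values were 2.68, 2.29 and 2.46 in c-Fos-deficient specimens 6, 8 and 9, and 2.65, 3.04 and 3.02 in c-Fos-floxed specimens 2, 3 and 5. The groups overlapped between specimen 6 and specimen 2. The difference was -0.42 (SE 0.16, 95% interval -0.81 to -0.03), or 1.34-fold lower, with an adjusted p of 0.398 in limma. With the papilloma in Cy3, Serpinb2 read 1.81, 1.67 and 1.72 in the c-Fos-deficient specimens, and 3.28, 2.31 and 3.16 in the c-Fos-floxed ones, a difference of -1.18. With the papilloma in Cy5 it read 3.55, 2.92 and 3.21 in the c-Fos-deficient specimens, and 2.02, 3.77 and 2.87 in the c-Fos-floxed ones, a difference of 0.34. The sign of the Serpinb2 difference was therefore not the same in the 2 orientations. Of all probes with complete values, 26.4% had opposite signs, and of the 7 probes here 2 did, Serpinb2 and the first Serpinb3a probe.

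The gap between the Cy5 and the Cy3 array of a specimen was not alike in all specimens. For Serpinb2, Cy5 minus Cy3 was 1.74, 1.25 and 1.49 in c-Fos-deficient specimens 6, 8 and 9, and -1.26, 1.46 and -0.29 in c-Fos-floxed specimens 2, 3 and 5. For Spink5 it was 1.63, 1.70 and 1.55 in the c-Fos-deficient specimens, and -0.62, 1.19 and 0.09 in the c-Fos-floxed ones. For both genes c-Fos-floxed specimen 3 lay near the c-Fos-deficient specimens and specimens 2 and 5 apart from them. The same split ran through the whole array: across probes, Cy5 minus Cy3 correlated at 0.762 to 0.845 among specimens 6, 8, 9 and 3, at 0.778 between specimens 2 and 5, and at 0.37 to 0.709 across these. For the first Serpinb3c probe the gap was 1.00, 0.89 and 0.81 in the c-Fos-deficient specimens, and 0.58, 0.70 and 0.41 in the c-Fos-floxed ones, positive in all 6. What part the dye gap had in the Serpinb2 and Spink5 differences was not tested.

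Serpinb5 read 5.96, 5.90 and 5.62 in c-Fos-deficient specimens 6, 8 and 9, and 6.08, 5.90 and 6.28 in c-Fos-floxed specimens 2, 3 and 5. The ratio was high against the reference RNA in every specimen, and the groups met at specimens 8 and 3. The difference was -0.26 (SE 0.14, 95% interval -0.61 to 0.09), with an adjusted p of 0.542 in limma. It was -0.12 in Cy5 and -0.40 in Cy3.

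**Figure D2:**
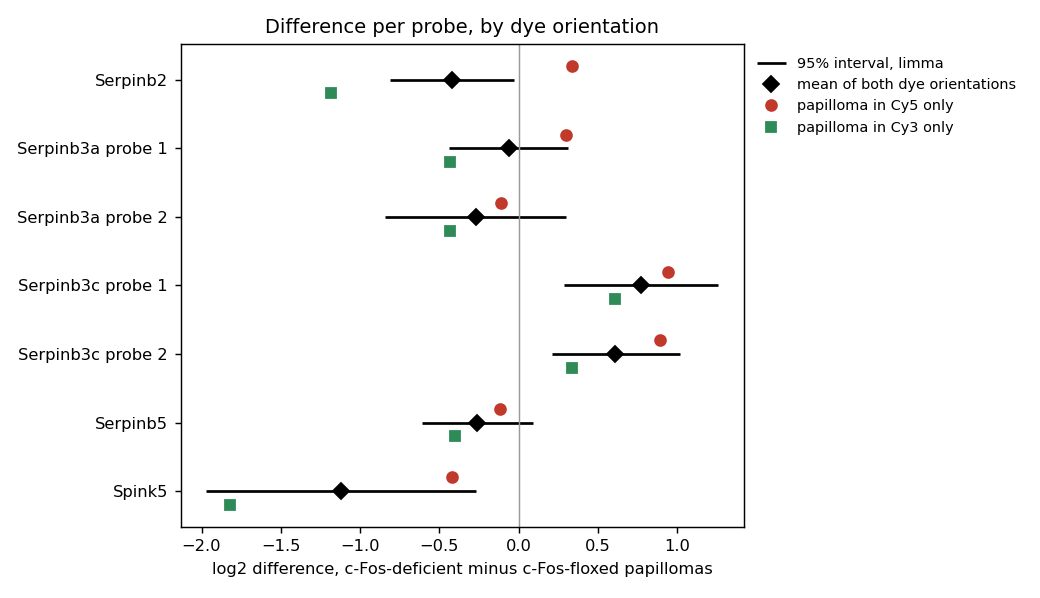
Log2 difference, c-Fos-deficient minus c-Fos-floxed papillomas (horizontal axis), for the 7 probes. Diamonds with bars are the mean of both dye orientations and its 95% limma interval, circles the Cy5 arrays alone and squares the Cy3 arrays alone; the Serpinb2 symbols lie at -1.18 in Cy3 and 0.34 in Cy5, while both Serpinb3c probes lie above 0 in each orientation.

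Across the 7 probes, 5 had a difference below 0, and the median was -0.26. At an unadjusted p under 0.05 in limma, 2 probes were higher, both of Serpinb3c, where 4.48% of all probes tested were. Likewise 2 probes were lower, Serpinb2 and Spink5, where 7.32% of all probes tested were. The specimen values of 2 probes were all higher in the c-Fos-deficient papillomas, where 10.9% of all probes with complete values were. Those of 1 probe, Spink5, were all lower, where 9.09% of all such probes were. These counts are over few probes, of which 2 share a gene, and were read for a list chosen with earlier results of the data known.

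The patterns of the genes over the 6 specimens are described by Pearson's r. Serpinb2 and Spink5 correlated at r = 0.821, and Serpinb3c and Spink5 at r = -0.793, while Serpinb2 and Serpinb5 were at r = 0.555. Serpinb3c stood at r = -0.054 with the first Serpinb3a probe and at r = -0.725 with the second. The first probe of each gene is used below and for Serpinb3c above. Ranked from the highest r with Spink5 to the lowest, Serpinb2 stood at place 804 and Serpinb3c at place 16134 of 17875 probes. The specimen values of Serpinb3c and Spink5 each kept the groups apart, in opposite directions, so their r partly restates the group differences. All these values share the 6 specimens and their arrays. By the same measure, the named genes most like Serpinb2 were Arg1, Zfp729a and Kcnk2, with r between 0.984 and 0.985. Those most like Serpinb3c were Sdhb, Ift20 and Lcat, with r between 0.989 and 0.997. Those most like Spink5 were Ttc39b, Csnk1g3 and Fhl2, with r between 0.988 and 0.992. For Serpinb5 they were Laptm4a, Plet1 and Ikzf5, between 0.979 and 0.994, and for Serpinb3a Asxl2, B4galt5 and Cfap161, between 0.941 and 0.977. These are the highest of 17874 or 17875 probes ranked over 6 specimens, and are given as a description.

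The other serpins of the cluster surrounded the described genes without a common direction. In the order of the chromosome, Serpinb12 had a difference of -0.21 (SE 0.22), Serpinb13 of 0.30 (SE 0.13) and Serpinb11 of -0.17 (SE 0.16). Serpinb3d, which lies between Serpinb3a and Serpinb3b, had a difference of -0.00 (SE 0.40), and Serpinb8, at the far end, of -0.46 (SE 0.19, from 2 c-Fos-deficient specimens). None of these passed the test in limma. Serpinb7 had a probe but too few values for a test.

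**Figure D3:**
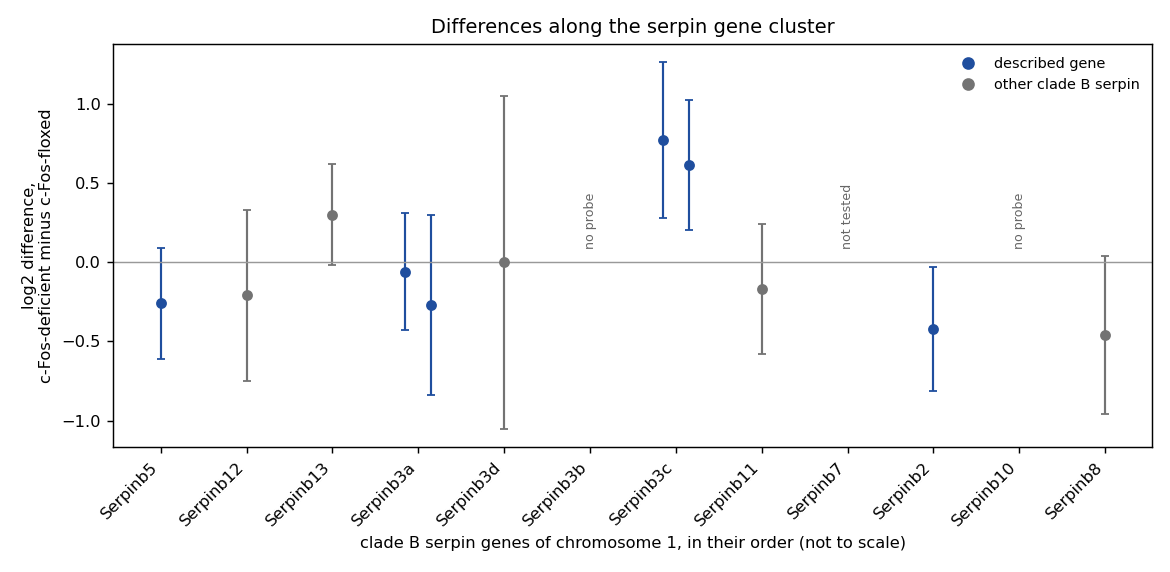
Log2 difference, c-Fos-deficient minus c-Fos-floxed papillomas (vertical axis), with its 95% limma interval, for the clade B serpin probes of chromosome 1 in the order of the genes (horizontal axis, not to scale). Both Serpinb3c probes, at 0.77 and 0.61, lie above 0 with their intervals, between Serpinb3d at -0.00 and Serpinb11 at -0.17.

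Of 23 other clade B serpins listed, 16 genes had a probe and 11 could be tested, with 14 probes. Of these, 4 probes lay above 0 and 10 below, with a median difference of -0.15 against 0.02 over all probes tested. At an unadjusted p under 0.05, 0 were higher and 1 of 14 was lower, a share close to the 7.32% of all probes tested. That probe belonged to Serpinb6a, an intracellular serpin. It read -0.94, -1.83 and -1.08 in c-Fos-deficient specimens 6, 8 and 9, and -0.12, -0.41 and -0.58 in c-Fos-floxed specimens 2, 3 and 5, without overlap, a difference of -0.91 (SE 0.27, adjusted p of 0.304 in limma). The other Serpinb6a probe, with 2 specimens per group, had a difference of -0.07 (SE 0.19).

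Other protease inhibitors of the skin included secreted ones with lower values. Of 37 genes listed, 19 were tested with 21 probes, of which 7 lay above 0 and 14 below, with a median of -0.12. At an unadjusted p under 0.05, 0 of the 21 were higher and 4 lower, where 4.48% of all probes tested were higher and 7.32% lower. Timp3, an inhibitor of matrix metalloproteinases named after its value was seen, had a difference of 1.28 (SE 0.53). Its groups overlapped, with c-Fos-deficient specimen 9 at -1.77 below c-Fos-floxed specimen 5 at -1.49. Slpi, an inhibitor of neutrophil elastase, read 0.70, -0.70 and 0.21 in c-Fos-deficient specimens 6, 8 and 9, and 3.24, 3.23 and 1.72 in c-Fos-floxed specimens 2, 3 and 5. The groups lay apart, with a difference of -2.66 (SE 0.55, adjusted p of 0.215 in limma). Spint1, which blocks the membrane protease matriptase, had a difference of -0.71 (SE 0.20, adjusted p of 0.296 in limma), which was -0.34 in Cy5 and -1.08 in Cy3. Wfdc2, a relative of Slpi, had one of -0.57 (SE 0.15, adjusted p of 0.279 in limma).

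Probes of the plasminogen system, on which Serpinb2 acts, had differences close to 0. Of 12 genes listed, 10 were tested with 1 probe each, 6 above 0 and 4 below, with a median of 0.02, and 0 reached an unadjusted p of 0.05. Plau, the urokinase-type activator, had a difference of 0.04 (SE 0.23), Plaur, its receptor, of 0.07 (SE 0.16) and Plat, the tissue-type activator, of -0.12 (SE 0.20). These 3 were chosen after their values were seen, as the partners of Serpinb2. By the rule of the smallest p, the genes named were Plgrkt with 0.21 (SE 0.19), Serpinf2 with 0.07 (SE 0.08, from 2 c-Fos-deficient specimens) and Serpine2 with -0.15 (SE 0.19). The log2 ratios of Plg, Anxa2 and Serpinf2 lay between 0.16 and 0.31 in every specimen with a value. Whether these spots stood above background was not tested.

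The list around Spink5 held kallikreins and other proteases linked to it, their substrates and related genes. Most of its probes had differences below 0, and none passed the adjusted threshold. Of 22 genes listed, 17 were tested with 19 probes, of which 4 lay above 0 and 15 below, with a median of -0.87. At an unadjusted p under 0.05, 0 of the 19 were higher and 8 lower, where 4.48% of all probes tested were higher and 7.32% lower. The widest difference ran the other way: Tslp, an epithelial cytokine, had a difference of 2.79 (SE 1.41, from 2 c-Fos-deficient specimens) and was singled out after seeing it. Its groups overlapped, with c-Fos-floxed specimen 5 at 2.38 above c-Fos-deficient specimen 6 at 1.93. Klk7, the chymotrypsin-like kallikrein that LEKTI inhibits, read 2.36, 1.79 and 2.33 in c-Fos-deficient specimens 6, 8 and 9, and 2.78, 3.11 and 3.24 in c-Fos-floxed specimens 2, 3 and 5. As for Spink5, specimen 8 was lowest and the groups did not overlap, with a difference of -0.89 (SE 0.21, adjusted p of 0.245 in limma). Klk7 also depended on the dye, with -0.39 in Cy5 and -1.38 in Cy3. Klk12 had a difference of -2.14 (SE 0.38, adjusted p of 0.212 in limma) and Klk10 one of -1.75 (SE 0.35, adjusted p of 0.215 in limma). Klk5, the trypsin-like kallikrein most closely tied to Netherton syndrome, differed by -0.25 (SE 0.33), and was chosen after its value was seen. The list's median was -0.39 with the papilloma in Cy5 alone, and -0.45 without c-Fos-deficient specimen 8.

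Cathepsins, only some of which are targets of the Serpinb3 family, and leukocyte serine proteases had 15 probes tested. Of these probes, 5 lay above 0 and 10 below, with a median of -0.11. At an unadjusted p under 0.05, 1 of 15 was higher and 0 were lower, near the 4.48% of all probes tested that were higher. That probe was Cma1, a mast cell chymase, which read 5.49, 4.90 and 4.33 in c-Fos-deficient specimens 6, 8 and 9, and 3.45, 3.01 and 4.33 in c-Fos-floxed specimens 2, 3 and 5. Its difference was 1.31 (SE 0.44, adjusted p of 0.356 in limma), and specimens 9 and 5 met. Ctsb had a difference of -0.48 (SE 0.22), which was -0.18 in Cy5, -0.78 in Cy3 and -0.30 without c-Fos-deficient specimen 6. A Ctsd probe had one of -0.57 (SE 0.31), which was -0.32 without c-Fos-deficient specimen 6 and -0.89 without specimen 9. The other Ctsd probe differed by -1.05 (SE 0.86).

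**Figure D4:**
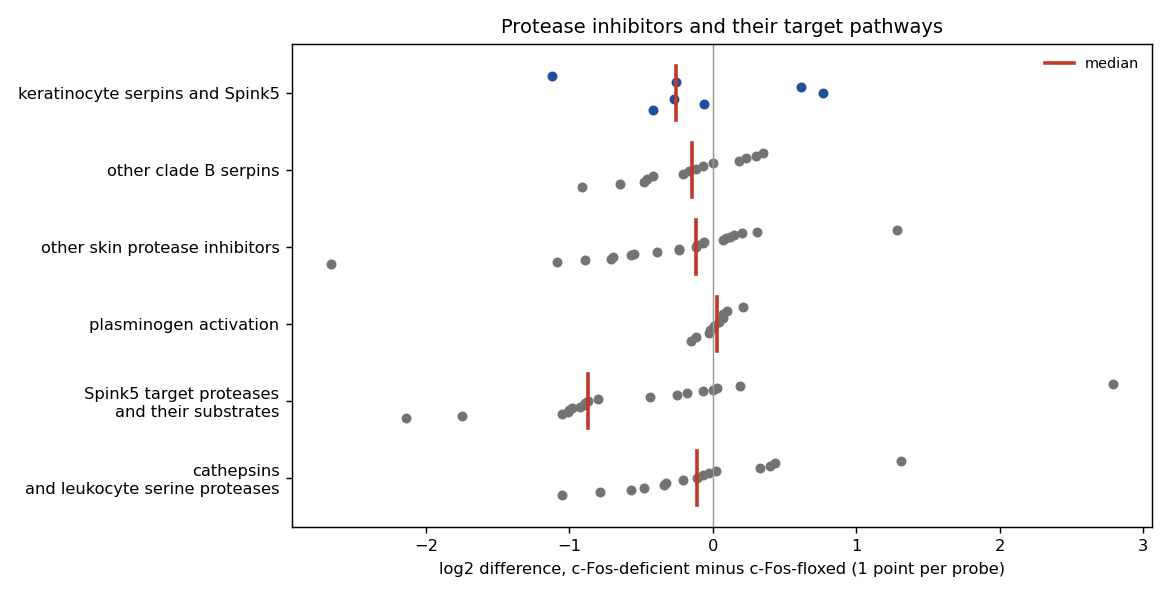
Log2 difference, c-Fos-deficient minus c-Fos-floxed papillomas (horizontal axis), 1 point per probe tested, for the described genes (top) and 5 related lists. Red bars are the medians, -0.26 for the described genes and -0.87 for the list labelled Spink5 target proteases and their substrates. That list also takes in proteases linked to Spink5 more loosely and the cytokine Tslp.

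Markers of the cells in a papilloma are given as medians. Median differences are over the tested probes. Ranges over specimens are medians over the probes with a value in all 6 specimens, which were 10 suprabasal and 8 basal probes. Keratinocyte markers had high ratios in both groups. Basal keratinocyte markers, with all 7 genes tested, had a median difference of -0.35 and suprabasal ones, also 7, of -0.12. The 9 basal probes did not share a direction, with 3 above 0 and 6 below. They ran from 0.46 (SE 0.09) for a Krt5 probe to -1.44 (SE 0.24) for Col17a1, and the other Krt5 probe had -0.15 (SE 0.15). The median log2 ratio of the suprabasal markers was 5.03 to 5.50 in c-Fos-deficient specimens and 5.14 to 5.40 in c-Fos-floxed ones, and that of the basal markers 1.94 to 2.63 in c-Fos-deficient specimens and 2.76 to 2.86 in c-Fos-floxed ones. Of the hair follicle markers, 4 of 8 genes were tested, and 3 probes had complete values. Set to the mean of the c-Fos-floxed specimens, their medians were 1.17 to 1.73 in c-Fos-deficient specimens and -0.04 to 0.09 in c-Fos-floxed ones. Of the sebaceous gland markers, 6 of 7 genes were tested, and 4 probes had complete values. Set the same way, their medians were 1.11 to 2.76 in c-Fos-deficient specimens and -0.22 to 0.39 in c-Fos-floxed ones. Of the 6 sebaceous probes tested, 5 lay above 0 and 1 below, which was Fasn with -0.82 (SE 0.81). For activated keratinocytes the median difference was 0.33, for mast cells 0.44, for melanocytes 0.12, for T cells 0.09, for fibroblasts 0.06, for macrophages 0.03, for endothelium -0.24 and for neutrophils, with 2 genes tested, -0.80. All 5 fibroblast and all 4 melanocyte probes tested lay above 0, by uneven amounts. The widest were Dcn with 1.82 (SE 0.51, from 2 c-Fos-deficient specimens) and Tyrp1 with 1.46 (SE 0.21, from 2 specimens per group), picked by their size. The log2 ratios of Col1a2, Tyr and Slc45a2 lay between 0.12 and 0.38 in every specimen. Whether the spots of these markers stood above background was not tested. The part of the cell type markers in the Serpinb3c and Spink5 values was not tested.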

How the data were processed

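RNA of 6 tail papillomas was measured on 12 two-colour arrays, 2 per specimen with exchanged dyes. The deposited table holds log ratios without a stated base, read here as log2. What the authors did for background correction and normalization, and why cells are empty, is not given in the sources used here. Folds hold for base 2. All 66 pairs of arrays correlated positively (r 0.705 to 0.963), so signs were kept as deposited, and papilloma over reference is the likely direction. Of 37632 probes, 20879 had 1 gene symbol in the platform annotation and 16753 none. Of 16964 symbols, 12801 were current in RefSeq (GRCm38.p6), 4006 were updated through a synonym and 157 kept. Arrays had a value for 20811 to 26490 probes, and their number limits the precision.

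A specimen value needed both arrays, and a probe at least 2 specimens per group, which left 21071 probes. Groups were compared with limma 3.58.1 (lmFit and eBayes, R 4.3.3), two-sided, with Benjamini-Hochberg adjustment over all probes and a threshold of 0.05. The script was tested on simulated data. Python 3.11.15 served for tables and figures, and Biopython 1.88 for aligning promoters. All member probes are described, and of each related list the 3 genes with the smallest unadjusted p. For likeness, the 3 genes with the highest Pearson r were named. The genes and lists were chosen with earlier results of these data known. The specimens came from different animals, per the series' design text. Alternatives were other scalings, each dye alone, other filters, gene means, a random specimen block, eBayes with trend, and each specimen left out.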

Additional observations from a re-analysis of the deposited data

How the results depend on the processing

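Each result was recomputed under up to 15 alternatives. The count of probes with an adjusted p under 0.05 was 0 in the comparison as reported, 1 with the papilloma in Cy3 only and 438 when all 12 arrays were fitted with dye as a term and specimens as a random block (102 higher, 336 lower, correlation within specimens 0.607); it was 0 under the other 13. Under that random block, Fos (-2.98, adjusted p of 0.00138 in limma), Slpi (-2.66, 0.0159), Klk12 (-2.14, 0.0224) and Klk10 (-1.75, 0.014) passed, and none of the 7 described probes did, with Serpinb3c closest (adjusted p of 0.058). In the block fit the unadjusted p in limma was 0.547 for Serpinb2 and 0.0795 for Spink5, against 0.0386 and 0.0185 as reported. For the first and second Serpinb3c probes it was 0.00153 and 0.0173. The block fit takes 1 correlation for all probes. Where the 2 arrays of a specimen were more alike than that, they count partly as replicates, and the p is too small. Leaving out 1 specimen in turn gave 1403 (without c-Fos-floxed specimen 2) to 3642 probes at an unadjusted p under 0.05, and 1575 without c-Fos-floxed specimen 3. Signs turned for Serpinb2 in Cy5 only (0.34), for the first Serpinb3a probe in Cy5 only (0.30), under quantile normalization (0.04) and without c-Fos-floxed specimen 3 (0.08, range -0.17 to 0.08), for Serpinf2 with values from 1 or 2 arrays (-0.03) and for Serpine2 without c-Fos-deficient specimen 9 (0.03, range -0.28 to 0.03). The causes were not tested.

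Serpinb3c stayed above 0 under all 15 alternatives, at 0.61 to 0.98 for the first probe and 0.34 to 0.89 for the second, and Spink5 below 0 at -1.82 to -0.42, with adjusted p in limma of 0.166 to 0.728. Serpinb5 ranged from -0.40 to -0.11. The median of other clade B serpins was 0.12 in Cy5 only, -0.35 in Cy3 only and -0.29 (without c-Fos-floxed specimen 3) to -0.02 (without c-Fos-deficient specimen 9) with 1 specimen left out. That of other skin protease inhibitors was -0.24 on probes measured on all 12 arrays and with gene means, -0.29 in Cy3 only, and -0.24 to -0.16 with 1 specimen left out. With 1 specimen left out, plasminogen activation ranged from -0.05 to 0.06, the list around Spink5 from -0.96 to -0.45 and the cathepsin list from -0.27 to -0.03. The list around Spink5 stood at -0.39 in Cy5 only. No paired analysis was possible because the specimens came from different animals, and no matching between the groups is given.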
